A study of Mus musculus with 5 samples.

Results

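Of the 32261 genomic regions that carried NEUROD2 peaks of at least 2 of 3 antibodies in mouse embryonic cortex, 949 lay at the start sites of noncoding genes, which is 2.94% of all regions. A region was a union of peaks that shared at least 1 bp. It was counted here when its midpoint lay within 1000 bp of the transcription start site (TSS) of a gene that is not protein-coding, and more than 1000 bp from the TSS of every protein-coding gene, with the longest-span transcript of each gene as its representative (mm10, GENCODE release M21). The choice used positions and antibody counts alone. The other regions served for comparison, of which 4101 lay within 1000 bp of a protein-coding TSS (coding start regions) and 27211 lay farther than 1000 bp from every TSS (distal regions).

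Chromatin came from cerebral cortex of BALB/c embryos at stage E14.5 (days after conception), with tissue of many embryos from several mothers pooled for each experiment, and neither a mutation nor a treatment is named in the labels. Each of 3 NEUROD2 antibodies gave 1 library. The host species was mouse for ab1, and rabbit for the others, ab2 and ab3. The 2 GFP antibody libraries served the authors as controls during peak calling, ab2 and ab3 sharing the rabbit one, and were not analysed here as data. All libraries were therefore measurements of a single condition, and the spread between them is a spread between antibodies. Peak lists give neither read depth nor expression, so the cellular composition of the tissue could not be checked. The ab1 list held 51841 peaks, the ab2 list 35310 and the ab3 list 7470. The lowest deposited score was 50 in the first pair and 50.01 in the ab3 list.

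NEUROD2 is a basic helix-loop-helix (bHLH) transcription factor of excitatory cortical neurons. Factors of this family bind DNA as dimers at E-boxes, short sites that begin with CA and end with TG. Noncoding genes include long noncoding RNAs (lncRNAs), some of which are imprinted or host microRNAs in their introns, the microRNAs themselves, which repress target mRNAs through a short seed, and pseudogenes, which are copies of other genes. Vertebrate promoters differ in base composition, and many promoters of widely or developmentally used genes lie in CpG islands.

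The regions differed in the sequence at their centre, and examples are shown before the values. The extended E-box was searched on both strands as CAGCTGG or CAGCTGT or CAGATGG or CAGATGT or CATCTGG or CATCTGT or CATATGG or CATATGT, forms that can overlap each other on opposite strands. The central 200 bp of the 3 regions with the motif that ranked highest among the 10 with the largest summed scores are given on the plus strand of mm10, with the motif in capitals. They lay at *H2af-ps*, a histone H2A family pseudogene, at *Gm15423*, an antisense lncRNA, and at *Zfhx2os*, an lncRNA on the strand opposite to *Zfhx2*.
H2af-ps, chr5:35918481-35918680: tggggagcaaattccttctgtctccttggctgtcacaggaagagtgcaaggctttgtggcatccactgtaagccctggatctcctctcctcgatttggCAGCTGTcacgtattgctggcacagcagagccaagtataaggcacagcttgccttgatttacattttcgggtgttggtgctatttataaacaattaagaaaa
Gm15423, chr1:176933556-176933755: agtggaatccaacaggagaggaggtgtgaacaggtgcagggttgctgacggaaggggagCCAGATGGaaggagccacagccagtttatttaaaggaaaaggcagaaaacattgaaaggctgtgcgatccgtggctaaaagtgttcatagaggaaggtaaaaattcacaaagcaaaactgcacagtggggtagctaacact
Zfhx2os, chr14:55053864-55054063: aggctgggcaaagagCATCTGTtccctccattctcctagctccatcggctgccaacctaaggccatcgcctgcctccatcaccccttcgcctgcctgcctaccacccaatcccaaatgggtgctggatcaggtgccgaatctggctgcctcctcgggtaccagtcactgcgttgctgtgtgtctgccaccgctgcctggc

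The next 3 centres were CpG-rich, had no extended E-box and ranked highest by summed score among such regions at the listed lncRNA and microRNA genes, and their CG dinucleotides are in capitals. These regions lay at *Mir124a-1* and *Mir124a-3*, genes of the neuron-enriched microRNA miR-124, and at *Peg13*, an imprinted lncRNA gene inside *Trappc9*.
Mir124a-1, chr14:64590293-64590492: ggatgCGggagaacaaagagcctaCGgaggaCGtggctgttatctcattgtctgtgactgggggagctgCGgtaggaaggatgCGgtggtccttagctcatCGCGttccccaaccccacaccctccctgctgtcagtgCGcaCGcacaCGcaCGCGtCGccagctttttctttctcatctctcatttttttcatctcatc
Peg13, chr15:72809993-72810192: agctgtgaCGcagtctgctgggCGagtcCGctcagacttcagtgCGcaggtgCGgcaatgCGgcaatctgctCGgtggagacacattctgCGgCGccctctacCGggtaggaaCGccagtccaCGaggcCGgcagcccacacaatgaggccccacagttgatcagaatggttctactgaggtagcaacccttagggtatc
Mir124a-3, chr2:180893841-180894040: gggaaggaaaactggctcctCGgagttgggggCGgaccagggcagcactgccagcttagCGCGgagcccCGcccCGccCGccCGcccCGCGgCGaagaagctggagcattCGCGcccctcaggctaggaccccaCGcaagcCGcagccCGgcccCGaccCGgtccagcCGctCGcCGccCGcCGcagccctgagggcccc

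The *Mir124a-1* centre held 13 CG dinucleotides at a GC content of 56.0% and the *Mir124a-3* centre held 23 at 76.5%. The *H2af-ps* and *Gm15423* centres held 3 each, and the *Zfhx2os* centre held 7 at a GC content of 61.5%. A match of the motif is a description of these letters and does not show where the protein sat. Only the 200 bp at the midpoint were searched. A motif elsewhere in the wider regions, of 7758 bp at *Mir124a-1* and 2880 bp at *Mir124a-3*, would not have been seen.

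Extended E-boxes were present in the centre of 521 of the 949 regions, 54.9% (95% Wilson interval 51.7 to 58.0), beside 59.7% of all regions. A window of the same 200 bp that started 1000 bp beyond the end of each region held the motif in 22.7% of them. The motif was found only in the centre of 412 regions and only in the flank of 106, a difference larger than counting error (McNemar's exact test, two-sided, adjusted p = 4.79e-43 over 7 tests). The paper derived this extended motif from the merged peaks of these same libraries. An excess in centres over flanks was therefore in part set in advance. The tests of centre against flank describe its size and are no independent evidence of binding. The tests between groups use the same motif. Base composition divided the regions sharply. A centre was called CpG-rich when its GC content was at least 55% and its observed over expected CpG ratio at least 0.6, which held for 178 of the 949 regions, 18.8% (16.4 to 21.4), beside 13.1% of all regions. Without ab1 the share was 9.55%, of 199 regions, and without ab2 it was 9.47%, of 190 regions. In the 771 other regions the motif was in 63.2% of centres and 23.1% of flanks (adjusted p = 1.84e-50, same exact test). In the CpG-rich regions it was in 19.1% of centres and 20.8% of flanks, and these did not differ beyond counting error (adjusted p = 0.798, same exact test). Among the 21 CpG-rich regions with an ab3 peak the shares were 28.6% and 14.3%, and this difference was not tested.

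All 4 gene classes with more than a single region had the motif more often in the centre than in the flank. For lncRNA genes the shares were 50.3% and 22.8% (n = 575, adjusted p = 4.60e-21, McNemar's exact test). For the class TEC, transcripts that still await experimental testing, they were 63.6% and 20.2% (n = 129, adjusted p = 1.07e-10, same exact test). Pseudogenes gave 61.7% and 27.0% (n = 115, adjusted p = 2.80e-06, exact), and small RNA genes gave 60.5% and 20.9% (n = 129, adjusted p = 7.27e-09, exact). CpG-rich centres were found at 22.1% of the lncRNA regions, 14.7% of the TEC, 15.5% of the small RNA and 10.4% of the pseudogene regions. Of the 178 CpG-rich regions, 127 lay at lncRNA genes.

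The 6-base cores of the motif were not used alike. CAGATG was in 38.4% of centres and 14.96% of flanks, and CAGCTG in 28.7% and 8.11%. CATATG was in 8.43% of centres and 6.01% of flanks, with Wilson intervals that overlapped. In coding start regions CAGCTG was likewise more frequent in the centre than in the flank (17.3% and 8.32%), whereas CAGATG was less frequent in the centre (10.7% and 14.8%). Distal regions held CAGATG in 48.1% of centres and CATATG in 13.4%.

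In E-box content the noncoding start regions stood between the coding start and the distal regions. Their share exceeded that of coding start regions, 20.8%, by 34.1 percentage points (95% interval 30.7 to 37.4, Fisher's exact test, two-sided, adjusted p = 1.07e-90 over 4 tests). Against distal regions, 65.7%, the difference was -10.8 percentage points (-14.0 to -7.61, adjusted p = 2.38e-11, same exact test). When only regions with all 3 antibodies were kept, this second difference was -6.48 points and no longer passed the test (adjusted p = 0.135, Fisher's exact test).

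The same differences were then taken within each sequence class, a comparison that was added after the data had been seen. Among centres that were not CpG-rich, the noncoding start share of 63.2% was 24.0 points above the coding start share of 39.1% (19.2 to 28.7, adjusted p = 1.33e-21, Fisher's exact test). It differed from the distal share of 66.8% by -3.63 points (-7.14 to -0.247), which did not pass after adjustment (adjusted p = 0.0727, same exact test). Among CpG-rich centres, the noncoding start share of 19.1% differed from the coding start share of 16.03% by 3.07 points (-2.19 to 9.59, adjusted p = 0.394, Fisher's exact test). It was lower than the distal share of 29.8% by a difference of -10.7 points (-16.8 to -3.62, adjusted p = 0.00815, same exact test). CpG-rich centres made up 79.2% of coding start regions and 2.96% of distal regions, so the mixture of the sequence classes differed between the groups.

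**Figure D1:**
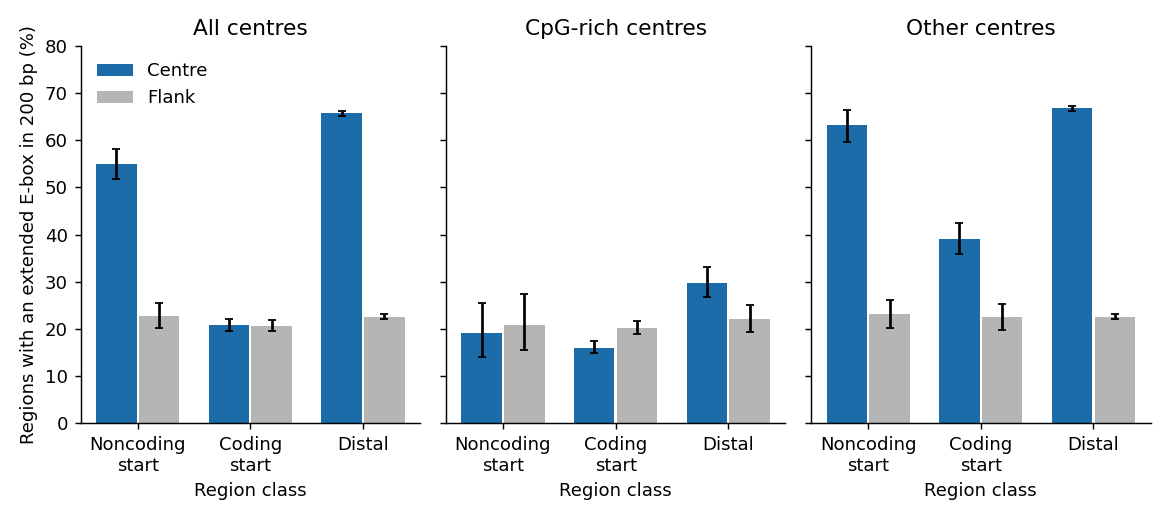
Share of regions with an extended E-box in the central 200 bp (blue) and in a flank of 200 bp (grey), in percent, for noncoding start, coding start and distal regions, over all centres, CpG-rich centres and other centres. Error bars are 95% Wilson intervals. For noncoding start regions the centre stood at 63.2% against 23.1% in the flank where the centre was not CpG-rich, and at 19.1% against 20.8% where it was.

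The 3 antibodies gave the same order of groups. Among regions with a peak of the antibody in question, 54.9% of the noncoding start centres had the motif for ab1, 54.9% for ab2 and 58.2% for ab3. Minus the coding start share, the values were 34.1, 34.1 and 19.2 points, with a mean of 29.1 ± 8.58 (SD, n = 3 antibodies, exact sign-flip permutation p = 0.25, the smallest that 3 antibodies allow). Minus the distal share, they were -10.8, -10.8 and -6.58 points, with a mean of -9.39 ± 2.43 (SD, n = 3, exact permutation p = 0.25). Among centres that were not CpG-rich, the difference from coding start regions was 24.0, 24.0 and 10.2 points for ab1, ab2 and ab3. Among CpG-rich centres, that from distal regions was -10.7, -10.7 and -18.5 points, the last with 21 noncoding start regions. The other differences within sequence classes kept their sign with each antibody. The ab1 and ab2 values rest on nearly identical sets of regions, since ab1 had a peak in all 949 and ab2 in 947, and only the ab3 set of 196 was much smaller.

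Peaks of all 3 antibodies were present in 194 of the 949 regions, 20.4% (17.998 to 23.1), beside 22.2% of all regions. With peaks of a score of at least 100 alone, it was 11.95%. A further 753 regions had ab1 and ab2 without ab3, and 2 had ab1 and ab3. The share with all 3 antibodies was higher than in coding start regions, 7.88%, by 12.6 points (9.97 to 15.4, adjusted p = 4.68e-26, Fisher's exact test), and differed from that of distal regions, 24.4%, by -3.97 points (-6.47 to -1.24, adjusted p = 0.00490). The difference from distal regions did not pass when regions near any annotated coding transcript start were left out (-2.88 points, adjusted p = 0.0581, same exact test). Within the class without CpG-rich centres, neither the difference from coding start regions (3.64 points, -0.300 to 7.59, adjusted p = 0.0992) nor that from distal regions (-2.33 points, -5.19 to 0.788, adjusted p = 0.150) passed Fisher's exact test. Within CpG-rich centres the share of 11.8% exceeded that of coding start regions, 5.02%, by 6.78 points (2.75 to 12.4, adjusted p = 0.00186, same exact test). It differed from that of distal regions, 12.7%, by -0.873 points (-5.54 to 5.08, adjusted p = 0.804, same exact test).

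Peak scores were 10 times the −log10 p-value of the peak caller and were compared only within an antibody. The median score of the noncoding start regions was 274 with ab1, 138 with ab2 and 83.0 with ab3. Coding start regions had medians of 241, 124 and 75.8, and distal regions 284, 144 and 91.1. Over all centres the noncoding start medians were thus intermediate with each antibody, although the quartiles of the groups overlapped widely. This order did not hold within the sequence classes for ab1 and ab2. Among CpG-rich centres the noncoding start medians were the highest, with 271 for ab1 against 232 in coding start and 261 in distal regions, and 136 for ab2 against 120.1 and 132. Among the other centres they were the lowest, with 275 for ab1 against 289 and 286, and 139 for ab2 against 141 and 145. With ab3 they were intermediate in both classes (72.5 and 85.2). The CpG-rich noncoding start regions were wider than the others, with a median of 1192.5 bp against 848 bp.

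**Figure D2:**
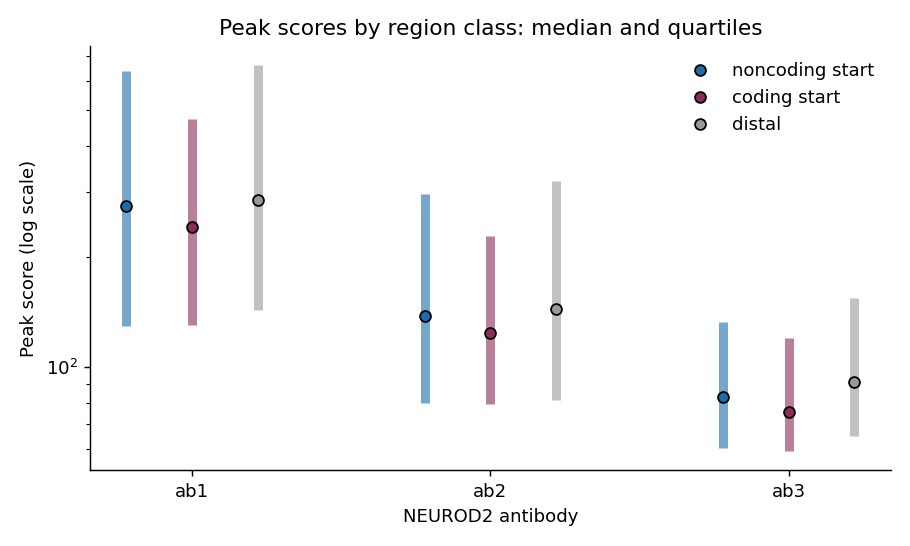
Peak score (log axis) of noncoding start, coding start and distal regions for each antibody; points are medians and thick bars span the lower to the upper quartile. The noncoding start median lies between the other medians for ab1 (274), ab2 (138) and ab3 (83.0), and the quartile bars overlap.

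Genes of the lncRNA class accounted for 575 of the 949 regions, 60.6%, followed by 129 at TEC genes, 129 at small RNA genes, 115 at pseudogenes and 1 at an immunoglobulin variable segment. By annotated type, 333 regions were at lincRNA genes, 171 at antisense genes, 87 at processed pseudogenes and 68 at microRNA genes. Relative to the number of start sites, 5.82% of 10155 lncRNA TSSs had a region outside the coding start regions within 1000 bp, compared with 4.04% of 3219 TEC, 2.42% of 6084 small RNA and 0.873% of 13523 pseudogene TSSs. For protein-coding genes, 20.8% of 21938 TSSs had a region of any kind. Reads with several map positions had been removed before peak calling, and the part of this step in the low pseudogene share was not tested.

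Proximity to the TSS differed among the classes. Around lncRNA TSSs more than 2000 bp from any coding TSS, there were 68.2 regions per 1000 TSSs within 1 kb, and 31.3 ± 1.35 (SD over 8 shells) in each 1-kb shell between 2 and 10 kb. The ratio of these values was 2.18 with all regions, and 2.18, 2.18 and 1.77 with the regions of ab1, ab2 and ab3. TEC start sites had a ratio of 1.49. At small RNA genes the ratio was 1.103, and the inner value of 25.4 was only slightly above the highest outer shell, 25.2. Pseudogenes had 8.75 regions per 1000 TSSs within 1 kb, below each of their outer shells (10.6 to 13.6). For pseudogenes and small RNA genes, then, the regions as a whole were not or hardly denser at the start site than farther out. Protein-coding TSSs had a ratio of 8.84, which was 3.34 with ab3. CpG-rich regions were 10.3 times as dense within 1 kb of lncRNA TSSs as in the outer shells, and regions that were not CpG-rich 1.80 times. For small RNA genes these ratios were 3.01 and 0.967, and for pseudogenes 1.76 and 0.677, so that in each class the CpG-rich regions had the higher ratio. They were few, at 4.61 per 1000 small RNA TSSs and 0.980 per 1000 pseudogene TSSs within 1 kb. Coding start regions, which held 3250 of all 4233 CpG-rich regions, were left out around noncoding TSSs. Because these TSSs lie over 2000 bp from coding ones, coding start regions could fall only beyond the first 1 kb. Leaving them out lowered the outer counts alone, and its part in these ratios was not tested.

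**Figure D3:**
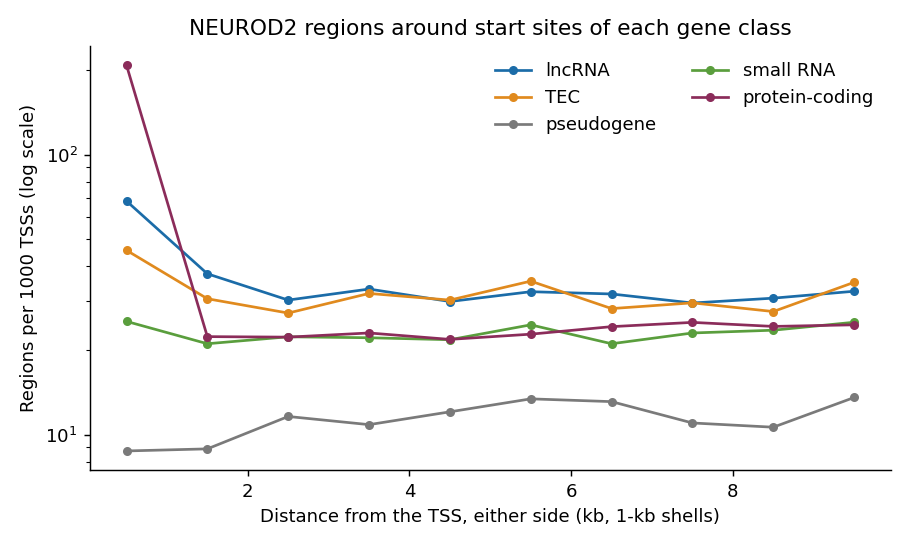
Regions per 1000 TSSs (log axis) in 1-kb shells around the TSS, either side, for each gene class; the noncoding TSSs lie more than 2000 bp from any coding TSS, and coding start regions are left out for them. The innermost shell stands at 68.2 for lncRNA genes, 45.5 for TEC, 25.4 for small RNA genes and 8.75 for pseudogenes.

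Of the 575 lncRNA regions, 265 had their midpoint within 250 bp of the TSS (46.1%). The share was 37.2% for TEC, 32.6% for small RNA and 26.1% for pseudogene regions, and 67.3% for coding start regions. The share on or downstream of the TSS was 49.4% for all 949 regions (46.2 to 52.6), whereas 73.2% of coding start midpoints (71.8 to 74.5) were on or downstream of theirs. Next to the TSS the classes went different ways. Within 250 bp, 153 lncRNA midpoints lay upstream and 112 on or downstream, compared with 19 and 29 for TEC, 9 and 21 for pseudogenes and 16 and 26 for small RNA genes, and the difference between classes was not tested. Regions near the TSS were also richer in CpG. CpG-rich centres made up 26.5% of regions up to 250 bp from the TSS, 19.6% of those from there to 500 bp and 9.41% of those from there to 1000 bp, while the E-box share was 52.5%, 50.9% and 60.3%.

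**Figure D4:**
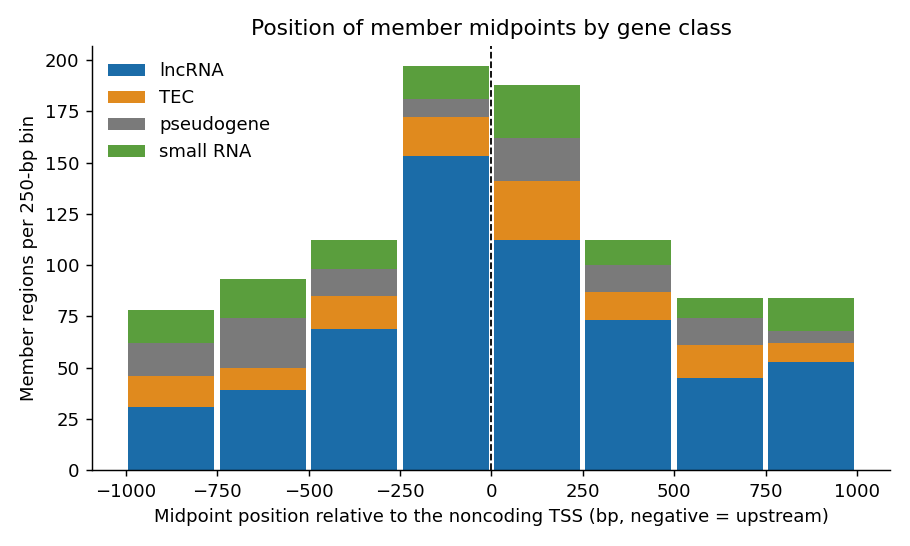
Number of noncoding start regions per 250-bp bin of the midpoint's position relative to the TSS (negative is upstream), stacked by gene class. The 2 bins next to the TSS hold 197 and 188 regions, most of them at lncRNA genes (153 and 112), and the outermost bins hold 78 and 84. The single immunoglobulin segment is not drawn.

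By the rule, every midpoint lay more than 1000 bp from the representative TSS of each coding gene. The closest protein-coding TSS was at a median distance of 45478 bp, nearer than the 70188 bp of distal regions, and within 5000 bp for 91 regions. The noncoding TSS lay outside every coding gene for 589 regions, inside a coding gene on the opposite strand for 221 and on the same strand for 139. In 24 of the 589 it was divergent to a coding TSS within 5000 bp. By a separate count, 91 regions were within 1000 bp of some other annotated transcript start of a coding gene, so that for 9.59% the noncoding and a coding start cannot be told apart. This share was 3.52% without ab1, 2.63% without ab2 and 3.61% when all 3 antibodies were required. These 91 had CpG-rich centres in 51.6% and E-boxes in 24.2%, compared with 15.3% and 58.2% of the remaining 858.

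The 10 regions with the highest summed scores were at *Gm45823*, *Gm26739*, *Gm47733*, *H2af-ps*, *Gm40477*, *Gm15423*, *Zfhx2os*, *Gm24975*, *Gm35394* and *Gm34424*. All had peaks of the 3 antibodies. Their ab1 scores carried little rank information, since 9 of the 10 were at exactly 3100, a value near the top of the deposited scale, and so were 13 of all 949. The highest, *Gm45823* (chr8:83584654-83585799, a sense intronic lncRNA gene), scored 3100 with ab1, 2901 with ab2 and 1540 with ab3, the last being the highest ab3 score of the 949 regions. *Zfhx2os* (chr14:55051966-55055961) scored 3100, 3100 and 264, with the midpoint 16 bp from the TSS. It was the only one of the 10 within 250 bp of its TSS, 0 of the 10 had a CpG-rich centre and 3 had an extended E-box. Over the 949 regions these shares were 40.6%, 18.8% and 54.9%.

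MicroRNA genes of the nervous system carried several regions. Among 38 annotated genes of a list of 40 neuronal microRNA genes, 4 had a region within 1000 bp, 10.5%, beside 2.42% of all small RNA TSSs. The list was drawn up with earlier results of these data known, so its share is a description only. miR-124 represses non-neuronal transcripts in neurons and is made from 3 loci, each of which carried a region close to the hairpin. The region at *Mir124a-1* (chr14:64586514-64594271) had scores of 2467 with ab1, 1845 with ab2 and 71.4 with ab3, and was a union of 4 peaks. At 7758 bp it was the widest of all 32261 regions, and its midpoint was 265 bp upstream of the hairpin. The region at *Mir124a-3* (chr2:180892501-180895380) scored 876 with ab1 and 363 with ab2, and its midpoint was 100 bp upstream of the hairpin. The third region (chr3:17793374-17795871) had its midpoint 274 bp upstream of the TSS of *Mir124-2hg*, the host gene of *Mir124a-2*, and 1040 bp upstream of that hairpin. It scored 752 with ab1 and 473 with ab2. In 2 of the 3 loci ab3 had no peak.

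The loci of miR-9, a microRNA of neural progenitors and neurons, were less uniform. The regions nearest the *Mir9-2* hairpin were weak or lay just beyond the limit. That at 954 bp upstream scored 67.8 with ab1 and 62.8 with ab2, and is also within 1000 bp of the TEC gene *Gm33366*. A distal region 1072 bp downstream scored 423 and 291. The host lncRNA gene *C130071C03Rik* had a stronger region 612 bp downstream of its TSS, with scores of 1664, 373 and 73.7, 16821 bp from the hairpin. *Mir9-2* had 10 regions within 20 kb, against 4 for *Mir9-3* and 6 for *Mir9-1*. *Mir9-3hg*, the host gene of *Mir9-3*, had a region with scores of 292 and 72.6 at 986 bp, near the 1000 bp limit. *Mir9-1* had no region at its start, and the nearest, at 5901 bp, scored 3100, 1353 and 166.

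The region at *Mir125b-1* (chr9:41580556-41581602) scored 349 with ab1, 348 with ab2 and 88.8 with ab3, and its midpoint was 847 bp upstream of the hairpin. The TSS of *Gm28119*, a sense intronic lncRNA gene, was closer, at 829 bp. The mature products are shown for the 2 list genes with a region whose symbols matched the RefSeq table. A gene without a symbol match may still have an entry. The seed (bases 2 to 8, in capitals) is the part that pairs with target mRNAs. Both genes are on the plus strand of GRCm38.p6, *Mir9-2* on chromosome 13 and *Mir125b-1* on chromosome 9. No seed was shared among the 4 products. Altogether 68 regions were closest to a microRNA TSS, at 65 genes, of which 42 matched the RefSeq table by symbol.
mmu-miR-125b-5p: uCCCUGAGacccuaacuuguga
mmu-miR-125b-1-3p: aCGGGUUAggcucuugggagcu
mmu-miR-9-5p: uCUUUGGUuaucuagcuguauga
mmu-miR-9-3p: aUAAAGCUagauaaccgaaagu

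Of 43 annotated genes in a list of 47 neural and imprinted lncRNAs, 11 carried 12 regions, 25.6%, beside 5.82% of all lncRNA TSSs, again with a list drawn up with results known. A further 3 had a region that counted as a coding start region. Of the 12 regions, 7 had CpG-rich centres and 3 an extended E-box, and 4 had peaks of all 3 antibodies. Over the 949 regions these shares were 18.8%, 54.9% and 20.4%. Their median scores were 585 with ab1 and 299 with ab2, compared with 274 and 138 over the 949 regions. *Peg13* had the highest scores, 1853 with ab1, 1198 with ab2 and 195 with ab3, and its midpoint was 232 bp into the gene. *Mir99ahg*, which hosts miR-99a, let-7c and a copy of miR-125b, had regions 812 bp downstream (911, 411 and 51.6) and 150 bp upstream (56.7 and 98.3) of its TSS.

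Genes adjacent to neuronal transcription factors and genes with general functions were both among them. *Pantr1* starts near *Pou3f3*, a cortical POU-domain factor, and its region scored 648 with ab1 and 225 with ab2. The midpoint of this region was 1091 bp from the *Pou3f3* TSS, and its width of 3029 bp extended across that TSS. *Zeb2os*, on the strand opposite to *Zeb2*, scored 611 and 459. *Jpx*, an lncRNA of X inactivation, scored 523, 379 and 83.0, and its midpoint was 57 bp from the TSS. *Dleu2*, the host of miR-15a and miR-16-1, scored 559 and 87.7, and *Malat1*, an abundant lncRNA of nuclear speckles, 278 and 102. The lowest of the lncRNA list by summed score was *1700020I14Rik*, with 86.2 and 54.4. Among 15 hosts of small nucleolar RNAs, 1 had a region, 6.67%, close to the 5.82% of all lncRNA TSSs. It was *Snhg6* (1649, 1036 and 139), with the midpoint 121 bp from the TSS and with a CpG-rich centre. The strength of the 17 listed regions thus varied widely with ab1, from close to the lowest deposited value to 2467. The highest ab1 score of the 949 regions was 3233.

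**Figure D5:**
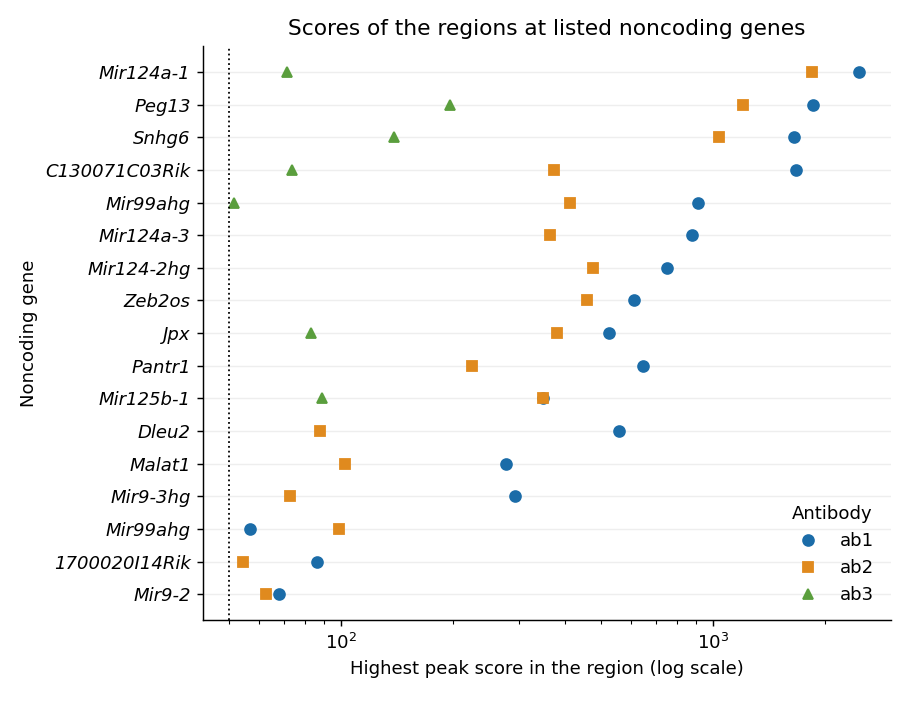
Highest peak score in the region (log axis) for each antibody at the 17 regions of the listed lncRNA, microRNA and small nucleolar RNA host genes; a missing symbol means no peak, and the dotted line marks a score of 50. *Mir124a-1*, *Peg13*, *Snhg6* and *C130071C03Rik* are the 4 highest with ab1, from 1649 to 2467, and *Mir9-2*, *1700020I14Rik* and the weaker *Mir99ahg* region below 100.

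Opposite-strand genes, whose symbols end in os or in os and a digit, were represented by 17 of 289 annotated genes, 5.88%, which is close to the 5.82% of all lncRNA TSSs, with a median ab1 score of 226 beside 274 over the 949 regions. Of the 289, 27 had a coding start region within 1000 bp of their TSS. The strongest were *Zfhx2os*, then *Lrp8os1* (1447, 764 and 50.4), which lies opposite *Lrp8*, a receptor for Reelin, then *Zeb2os*, *Frmd8os* (523 and 375) and *Lrrc75aos2* (517, 241 and 62.6). Of the 17 regions, 9 had an extended E-box and 6 a CpG-rich centre, beside 54.9% and 18.8% of the 949 regions.

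For 29 regions the closest protein-coding TSS belonged to 18 of 48 listed cortical transcription factors, 37.5%, beside 3.79% of all protein-coding genes, with a list drawn up with results known. Of these 29 regions, 8 had an extended E-box, 8 a CpG-rich centre and 5 peaks of all 3 antibodies. Over the 949 regions these shares were 54.9%, 18.8% and 20.4%. The median ab1 score was 362 beside 274 over the 949 regions. The strongest was at *Gm26801*, an antisense gene, with scores of 3100, 2178 and 440. The midpoint of this region was 1176 bp from the TSS of *Zbtb18*, a repressor needed in cortical development. Next were the regions at *4932412D23Rik* (1610 and 793), with a midpoint 31722 bp from the TSS of *Zbtb20*, and at *C130071C03Rik*, 217753 bp from that of *Mef2c*. The midpoint of the region at *AC115119.1* (1361, 453 and 67.8) was 380381 bp from the TSS of *Zfp608*, and that at *Gm31333* (1324, 474 and 53.3) 386747 bp from the TSS of *Myt1l*. Closeness along the chromosome at such distances does not show which gene a region serves.

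At the limit of 1000 bp, the farthest region counted was at *Mir6346*, at 1000 bp, with scores of 681, 485 and 58.9, and the nearest not counted was at *Gm8668*, at 1001 bp, with scores of 64.6 with ab1 and 60.1 with ab2. The number of regions depended most on the antibodies. Without ab1 there were 199 regions and without ab2 there were 190, because ab3 had few peaks, and without ab3 there were 946. The E-box difference from coding start regions was then 14.1 points without ab1 and 14.04 without ab2, and still passed (adjusted p = 0.00469 and 0.00984, Fisher's exact test).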

How the data were processed

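The authors mapped single-end ChIP-Seq reads from E14.5 BALB/c cortex to mm10 with Bowtie, discarded duplicated and multiply mapped reads, and ran MACS on each NEUROD2 library with the GFP library of its host species as control. The deposited score of each peak, 10 times the −log10 p-value, is not scaled between libraries. Here peaks were merged and placed on GENCODE M21 TSSs with pysam 0.24.0, pandas 2.3.3 and numpy 2.4.6 in Python 3.11.15, tested with scipy 1.17.1 and plotted with matplotlib 3.10.9. Centres and flanks of 200 bp were read from the GRCm38.p6 reference, which is of another strain than the mice, so strain variants were not seen. Shares have 95% Wilson intervals, which cover counting error only, and neighbouring regions were treated as independent in the exact tests. p-values were adjusted by the Benjamini-Hochberg method. The calculations were tested on simulated data. The members and lists were chosen with earlier results of these data known. The text names the 10 regions with the highest summed scores (an antibody without a peak counts as 0), every region at a listed neural or imprinted lncRNA, neuronal microRNA or small nucleolar RNA host gene, the 5 highest of the opposite-strand and of the transcription factor regions, and the regions on either side of 1000 bp. Mature microRNA sequences are from RefSeq. Alternatives were a score of at least 100, an overlap of 50% of the shorter peak, all 3 antibodies, each antibody left out, the highest peak's midpoint, all transcript starts, distances of 500 and 2000 bp, lncRNA types only, the motif CANNTG, motif windows of 100 and 400 bp and the flank before the region.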

Additional observations from a re-analysis of the deposited data

How the results depend on the processing

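No paired analysis was possible because all peak lists are of a single condition and no groups of samples were compared. Counted against 949, there were 569 regions with peak scores of at least 100, 194 with all 3 antibodies, 1507 with a TSS distance of 2000 bp and 583 with lncRNA types only, and between 190 and 946 when each antibody was left out, fewer peaks or genes entering in each case but the wider distance. The E-box share of the centre minus that of the flank kept its direction and passed the test in 17 of 18 alternatives, with 18.1 to 40.1 percentage points. It was reversed in CpG-rich centres, at -1.69 points (p = 0.798, McNemar's exact test), which is no call. In the 21 CpG-rich regions with an ab3 peak it was not reversed, with 28.6% in the centre and 14.3% in the flank. The E-box difference from coding start regions passed in 16 of 17 alternatives (14.04 to 34.9 points) and was 3.07 points in CpG-rich centres. The E-box difference from distal regions passed in 15 of 17 (-15.6 to -6.98 points) and did not with all 3 antibodies (-6.48 points) or in centres that were not CpG-rich (-3.63 points). For the share with all 3 antibodies, the difference from coding start regions passed in 9 of 10 alternatives (6.78 to 13.3 points) and was 3.64 points in centres that were not CpG-rich. The difference from distal regions passed in 7 of 10 (-5.78 to -2.57 points), and did not with exclusion by every coding transcript start (-2.88 points), in CpG-rich centres (-0.873 points) or in the other centres (-2.33 points). The split into CpG classes was added after the data had been seen, and where a call was lost the cause was not tested. Across the alternatives other than the CpG split the share of CpG-rich centres ranged from 9.47% to 25.7%, and the share on or downstream of the TSS from 48.4% to 50.5%. The share with all 3 antibodies could not be computed where all 3 were required or an antibody was left out. Read depth is not given by the peak lists, so it cannot be said which start sites without a peak were too thinly covered.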

Other observations

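Peaks of a single antibody were outside the regions described above. With ab1 alone there were 18825 such regions, of which 522 (2.77%) lay at noncoding start sites by the same rule, with a median score of 75.1. With ab2 alone there were 81 of 2645 (3.06%, median 62.6) and with ab3 alone 7 of 102 (6.86%, median 56.2). Among regions with at least 2 antibodies the share was 2.94%. These midpoints included the starts of 6 further genes of the 43 annotated in the lncRNA list and 3 of the 38 in the microRNA list. They also included 7 of the 15 small nucleolar RNA host genes. The share of all start sites with such a peak was not computed, so these counts are a description only. *Mir9-1*, without a region at its start, had an ab1 peak with a score of 561 at 542 bp upstream of the hairpin. *Kcnq1ot1*, an imprinted antisense lncRNA, had an ab1 peak of 245 at 97 bp from its TSS. *Nespas*, another imprinted antisense lncRNA, had one of 136 and *Crnde* one of 128. *Mir137* had an ab1 peak of 116 at 32 bp from the hairpin, and the imprinted *Meg3* had one of 58.6. The 7 small nucleolar RNA hosts, *Snhg5*, *Snhg8*, *Snhg9*, *Snhg12*, *Snhg15*, *Snhg17* and *Snhg20*, had scores of 56.2 to 75.9, all near the lowest deposited score. Each of these peaks was seen with 1 antibody and has no second measurement.

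The wide regions were unevenly spread. Of the noncoding start regions 4.74% (95% Wilson interval 3.56 to 6.29) were 2500 bp or wider, compared with 5.73% (5.06 to 6.48) of coding start regions and 1.499% (1.36 to 1.65) of distal regions. Among the listed lncRNA and microRNA genes, the regions at *Mir124a-1* (7758 bp), *Mir9-3hg* (4918 bp), *Zeb2os* (3454 bp), *Pantr1* (3029 bp), *Mir124a-3* (2880 bp) and *Dleu2* (2586 bp) were of this kind.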
